A study of Mus musculus with 80 samples.

Results

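Chromosome 11 carried 649 of the 10785 barcoded reporters that passed a minimum of 10 DNA counts in all 8 DNA libraries of their pool, and these 649 reporters are described here along the chromosome and across doses of doxycycline (dox). They were taken as every deposited row on chromosome 11, from all 4 pools, with 149 in pool A, 143 in pool B, 162 in pool C and 195 in pool D. The table held 655 chromosome 11 rows, and 6 of them missed the DNA minimum. The chromosome was taken up because its reporters had been high relative to DNA at every dose in earlier work on the same counts, so its level against the other chromosomes is given as a description with no test. The cells were EBRTcH3, mouse embryonic stem cells in which the ROSA26 locus expresses tTA, the tetracycline-controlled transactivator. All groups were the same cells and pools and carried tTA and the reporter, and they differed only in dox: none (dox 0), 0.01 ng/ml, 0.1 ng/ml or 100 ng/ml for 72 h. Cells with low eGFP had been sorted and grown for 5 days, small pools had been expanded for 7 days, and each pool was then divided into 2 cultures kept apart for 7 days, which are the 2 replicates. The protocols also speak of an mPGK promoter, whereas the titles name a tet-Off reporter, and the titles were followed. Of the 80 samples in the labels, 64 were RNA or DNA barcode libraries and 16 were mapping libraries not used here.

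The assay, TRIP (reporters integrated in parallel), places the same reporter at many genomic sites with the piggyBac transposon, and a short random barcode in the transcribed part tells the integrations apart. RNA barcode counts over DNA barcode counts give the output of each site per copy, so that differences between sites with the same promoter can be read as differences between locations. In a tet-Off system tTA binds operators in front of a minimal promoter and activates it, and dox releases tTA, so that the lowest dose leaves the activator bound and the highest removes it. RNA counted at the highest dose is what a site still holds after the activator has been released.

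The barcodes of 12 reporters that carry the results below are printed 5′ to 3′ as deposited, with no part in capitals because no base of a barcode has a role. Their coordinates are the deposited mm9 positions. The first 10 gained RNA relative to DNA at dox 100, and each of them but pool D 107296994 has a listed neighbour from another pool. The last 2 are reporters whose RNA was not counted at dox 100.
Pool A, position 12363646, minus strand: agactaccaaccacca
Pool B, position 12368651, plus strand: agtctaatgtgcatcc
Pool C, position 62245758, plus strand: cgtgagcgacgtccac
Pool A, position 62307475, plus strand: caaggataaaccgact
Pool A, position 62321485, minus strand: cgattccattggctaa
Pool C, position 62324216, plus strand: ctaccggctaacacta
Pool C, position 97523049, minus strand: cgatttatgacgtata
Pool D, position 97523580, minus strand: agacctttccttctat
Pool A, position 97594599, minus strand: ttccacaaggcgcatc
Pool D, position 107296994, minus strand: ctacccaagtctaatt
Pool A, position 116892520, minus strand: aaaggagacagccaac
Pool B, position 98200911, minus strand: attgcactaaatgaga

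The reporters lay between positions 3046674 and 121534041, at 5.48 per Mb of that span against 4.16 per Mb on the other chromosomes. The median gap between neighbours was 98.2 kb and the largest was 2059 kb. The plus strand held 305 reporters and the minus strand 344. No 2 chromosome 11 reporters shared a position, 2 pairs lay 1 bp apart, and no barcode with its position recurred in a second pool. Library totals ran from 729108 to 1840870 counts for RNA and from 923846 to 1571280 counts for DNA, so a count of 0 in 1 library covers a limited depth. The DNA minimum cut close to few reporters. Just inside it, the pool B reporter at 4167271 had a lowest DNA count of 11, the pool D reporter at 57355267 of 11 and the pool D reporter at 106118041 of 12. Just outside it were pool B 69574393, pool D 93818373 and pool C 98449125 with a lowest DNA count of 8, pool B 75498802 and pool C 110269423 with 6, and pool C 83105640 with 5. Among the reporters left out, pool D 93818373 still had 134 and 112 RNA counts at dox 100, whereas pool B 69574393 had 0 and 0.

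The level of a reporter is log2 of its RNA over its DNA, each as a share of its library with a pseudocount of 1, minus the mean of its pool at that dose and averaged over the 2 replicates. It states where a reporter stood among all reporters of its pool, and a higher level at a higher dose does not by itself mean more RNA per cell. By this measure chromosome 11 was above the other chromosomes in all 4 pools at all 4 doses. At dox 0 the difference, chromosome 11 minus the rest, was 0.77 in pool A, 0.75 in pool B, 0.34 in pool C and 0.44 in pool D, a mean of 0.58 ± 0.22 (SD, n = 4 pools). It was 0.72 ± 0.33 at 0.01 ng/ml, 0.98 ± 0.45 at 0.1 ng/ml and 0.74 ± 0.41 at 100 ng/ml. Pools A and B gave the larger differences at every dose and pools C and D the smaller ones. Chromosome 11 stood first of the 20 chromosomes ranked (all but Y) in mean level at dox 100, in mean level at dox 0 and in the share of reporters with RNA in both dox 100 libraries.

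**Figure D1:**
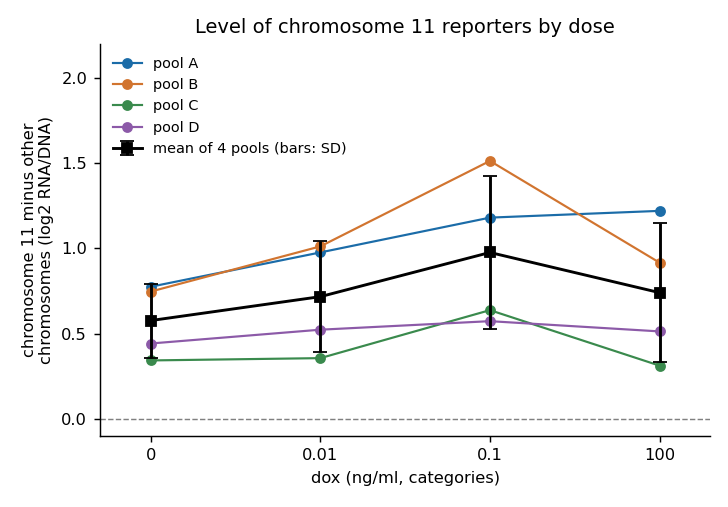
Mean level of chromosome 11 reporters minus that of all other chromosomes (y axis, log2 RNA/DNA) at each dox dose (x axis, ng/ml, as categories) in each pool, with the mean of the 4 pools and its SD as bars. All 16 differences are above 0, and the mean runs from 0.58 at dox 0 to 0.98 at 0.1 ng/ml and 0.74 at 100 ng/ml.

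The shares of library counts differed more between pools. Chromosome 11 held 6.46% ± 1.07 of DNA counts at dox 0 and 8.43% ± 1.98 of RNA counts (SD over 4 pools, replicates averaged first). Its RNA share was 8.66% at 0.01 ng/ml, 7.69% at 0.1 ng/ml and 6.87% ± 2.57 at 100 ng/ml, against a DNA share of 6.39%, 6.42% and 6.43% at those doses. These means cover pools that went opposite ways at dox 100. There chromosome 11 had 10.8% and 10.6% of RNA counts beside 7.79% and 7.62% of DNA counts in pool A, and 5.70% and 5.80% beside 4.97% and 4.99% in pool C. In pool B it had 5.62% and 5.68% of RNA counts beside 6.85% and 6.89% of DNA counts, and in pool D 5.22% and 5.48% beside 6.04% and 6.27%. In pool D the RNA share was below the DNA share at 0.1 ng/ml too, at 5.46% and 5.80% beside 6.22% and 6.33%. The RNA share at dox 100 was thus above the DNA share in pools A and C and below it in pools B and D, while in all 4 pools the mean of the log2 levels remained above that of the other chromosomes.

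Within chromosome 11 the sites spread far wider than the chromosome stood apart. At dox 0 the levels ran from -12.95 to 5.82 with a median of 0.74, where the median of all reporters was 0.16. RNA was counted in both dox 0 libraries for 647 of the 649 reporters, in 1 of them for 1 reporter and in neither for 1. At 0.01 ng/ml these counts were 642, 5 and 2, at 0.1 ng/ml 462, 99 and 88, and at 100 ng/ml 247, 141 and 261. The drop in detection thus fell mainly between 0.01 and 100 ng/ml. Averaged over pools, 71.6% of chromosome 11 reporters had RNA in both libraries at 0.1 ng/ml, against 62.8% on the other chromosomes. At 100 ng/ml 40.1% had RNA in neither library, against 48.6% on the other chromosomes. Of the 261 reporters with no RNA at 100 ng/ml, 185 still had some at 0.1 ng/ml and 76 had none there either, and 12 reporters had RNA at 100 ng/ml but none at 0.1 ng/ml.

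The reporters highest at dox 0 were pool B 4167271, pool A 69500389, pool B 119803528, pool B 60743602 and pool D 97144231, with levels of 5.82, 5.44, 4.88, 4.86 and 4.74. The first rests on uneven DNA counts, 11 in replicate 1 and 174 in replicate 2 at dox 0, beside 1334 and 1887 RNA counts. Pool B 119803528 had 9286 and 9602 RNA counts over 397 and 693 DNA counts at dox 0. Of these 5 reporters, 4 had RNA in both dox 100 libraries and pool B 60743602 had 61 and 0 counts there. The lowest was pool B 29350554, with a level of -12.95. It had 0 RNA counts in both dox 0 libraries although its DNA counts there were 11969 and 14021, and at dox 100 it had 99 and 0 RNA counts, a higher call by edgeR that rests on 1 library. Pool A 84125803, pool D 3068197, pool B 40051688 and pool B 87476063 followed with levels between -5.84 and -4.50, and none of the 5 lowest had RNA in both dox 100 libraries.

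The level at dox 0 varied along the chromosome. In windows of 5 Mb from position 1, the highest at dox 0 were chr11:115000001-120000000 (1.79 ± 0.23, SE over 39 reporters), chr11:95000001-100000000 (1.67 ± 0.32, 31 reporters) and chr11:60000001-65000000 (1.50 ± 0.30, 32 reporters). In these 3 windows the means of the single pools ran from 1.03 to 2.32. The lowest were chr11:35000001-40000000 (-1.52 ± 0.57, 13 reporters), chr11:25000001-30000000 (-1.23 ± 0.78, 19 reporters) and chr11:90000001-95000000 (-1.06 ± 0.51, 17 reporters). Here the pools had both signs. In that order pool B stood at 2.23 (1 reporter), pool D at 0.22 (3 reporters) and pool A at 0.17 (2 reporters), with the other pools below 0. The window chr11:25000001-30000000 includes the reporter at 29350554, the one with no RNA at dox 0. The windows chr11:90000001-95000000 and chr11:95000001-100000000 are next to each other, so that a low stretch bordered a high one.

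**Figure D2:**
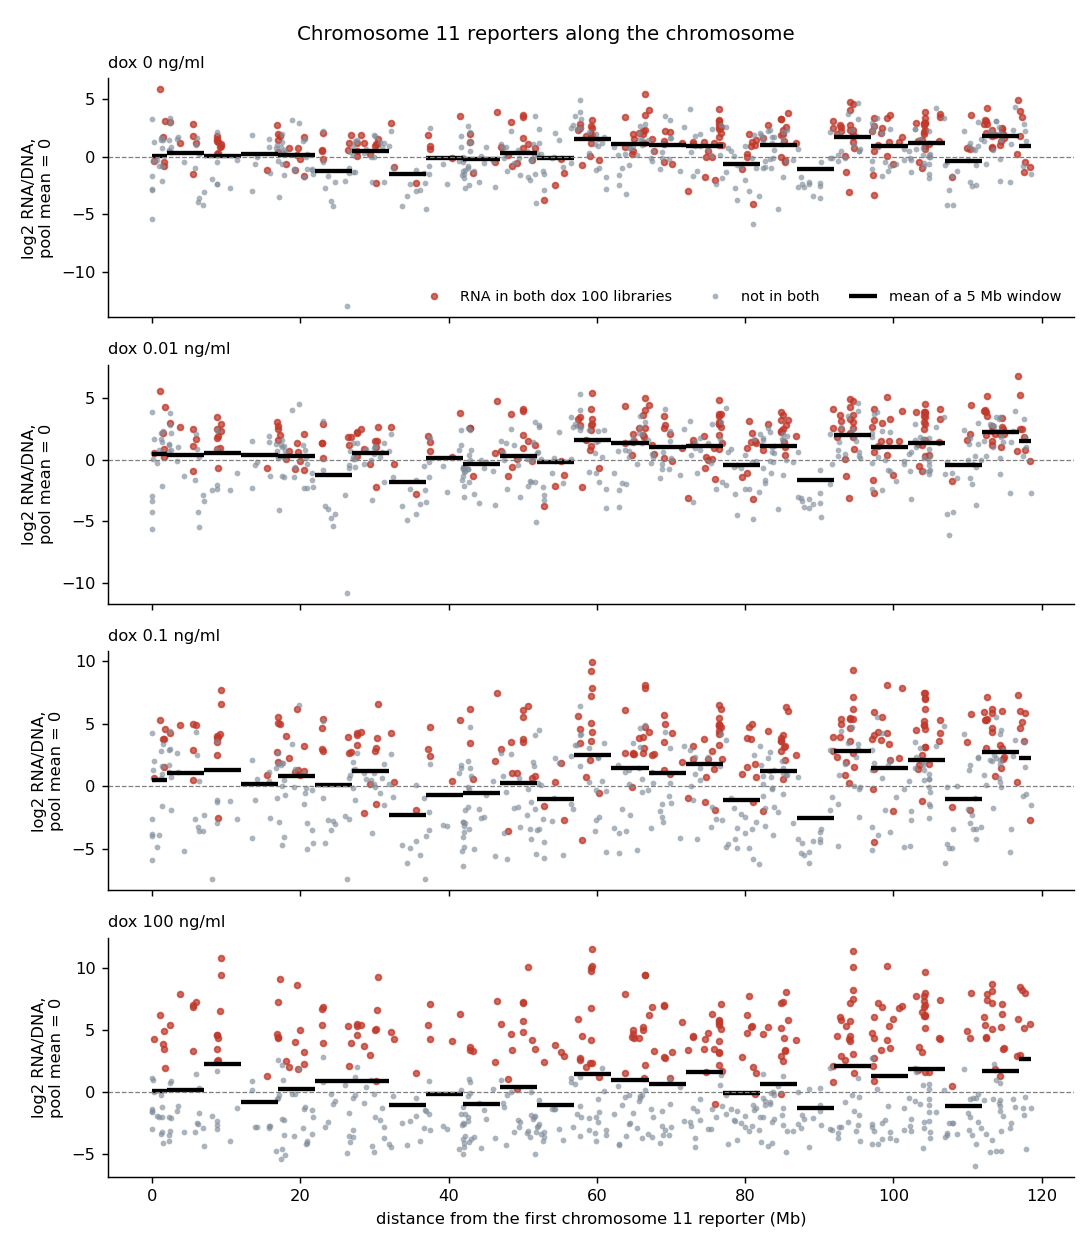
Level of each of the 649 reporters (y axis, log2 RNA/DNA with the pool mean at 0) along the chromosome (x axis, Mb from its first reporter) at the 4 doses, top to bottom. Red points had RNA in both dox 100 libraries and black bars are means of 5 Mb windows. From about 60 Mb onward most bars are above 0, and at dox 100 the points part into an upper red and a lower grey band. The colour was set by RNA at dox 100, so the order of the bands there follows from it.

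The 5 windows that added most, picked for that, gave 69.8% of the chromosome's excess over the rest at dox 100 and 73.0% at dox 0. Without them the remaining 468 reporters were 0.31 ± 0.26 above the other chromosomes at dox 100, and the remaining 466 were 0.23 ± 0.17 above at dox 0 (SD over 4 pools). A split at 60 Mb, chosen after the values were seen, put 384 reporters on the distal side and 265 on the proximal side. The distal reporters exceeded the other chromosomes by 1.13 ± 0.47 at dox 100 and 0.96 ± 0.21 at dox 0, with all 4 pools above 0. The proximal reporters differed by 0.16 ± 0.35 at dox 100 and 0.02 ± 0.24 at dox 0, and the pools had both signs.

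Windows kept much of their order over the doses. Window levels at dox 0 correlated with those at 0.01 ng/ml with a Pearson r of 0.98, with those at 0.1 ng/ml with 0.90 and with those at 100 ng/ml with 0.71 (Spearman rho 0.74 for the last). These are descriptions over 25 windows, which share their cells, pools and DNA denominators. Windows with more reporters tended to be higher, with r = 0.62 between reporter number and level at dox 0, and the part of reporter number in the level was not tested. Of the 25 windows 16 were above 0 at every dose and 6 were below 0 at every dose. The 16 became 9 of 25 when the window median took the place of the mean, and 10 of 24 when windows started 2.5 Mb later.

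At dox 100 the highest windows were chr11:120000001-125000000 (2.62 ± 1.42, 11 reporters of 3 pools), chr11:10000001-15000000 (2.22 ± 1.12, 16 reporters) and chr11:95000001-100000000 (2.13 ± 0.80, 31 reporters). The window chr11:10000001-15000000 had been near the pool mean at dox 0, at 0.09 ± 0.40. The lowest were chr11:90000001-95000000 (-1.30 ± 0.46), chr11:110000001-115000000 (-1.11 ± 0.68) and chr11:35000001-40000000 (-1.09 ± 0.84). Pools had both signs in these low windows too. In the same order pool A stood at 1.18 (2 reporters), pool D at 0.15 (11 reporters) and pool D at 0.77 (4 reporters), with the other pools below 0.

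RNA in both dox 100 libraries of the pool is called kept from here on. Kept reporters made up 38.1% of the chromosome (247 of 649), where 30.7% of all 10785 reporters were kept. By pool the share was 46.3% in pool A, 43.4% in pool B, 33.3% in pool C and 31.8% in pool D, a mean of 38.7% ± 7.21 (SD, n = 4), and each was above the share on the other chromosomes in its pool (31.1%, 33.3%, 29.2% and 28.4%). Of the 247, 230 had 10 counts or more in both libraries, and by that stricter rule 29.1% of all reporters counted as kept. The 141 reporters with RNA in 1 library had a median of 68 counts in it, and in 97 of them it was replicate 1. Detection at dox 100 therefore differed between the replicate cultures: averaged over pools, 53.1% had RNA in replicate 1 and 45.5% in replicate 2.

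Kept reporters stood higher at dox 0 too. Their median level at dox 0 was 1.38, against 0.47 for reporters with RNA in 1 dox 100 library and -0.09 for those with RNA in neither. The groups overlapped, with an interquartile range of 0.45 to 2.46 for kept reporters and of -1.40 to 1.25 for those with RNA in neither. Median DNA counts in replicate 1 at dox 0 moved the same way, at 408, 364 and 260, and their part in the detection of RNA was not tested. Depth of DNA was thus higher where RNA was found.

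**Figure D3:**
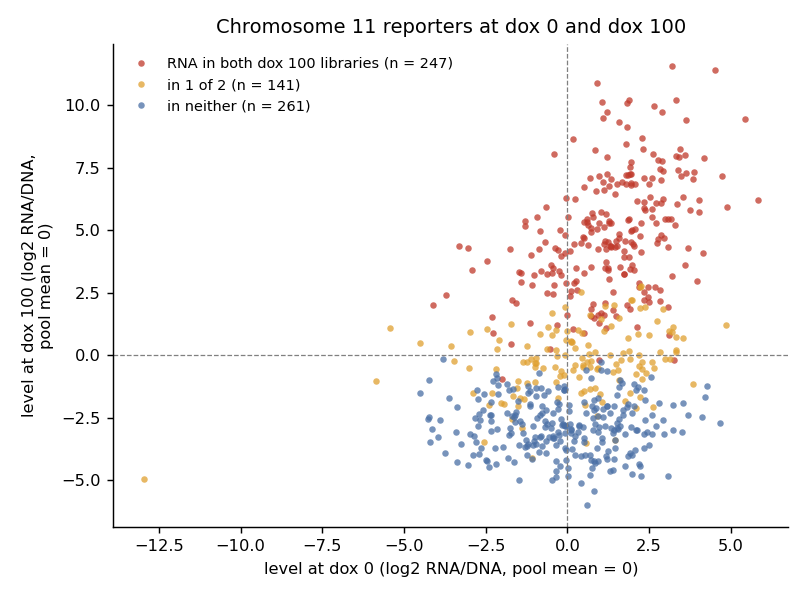
Level at dox 100 (y axis) against level at dox 0 (x axis), both log2 RNA/DNA with the pool mean at 0, one point per chromosome 11 reporter, coloured by whether RNA was counted in both (247), 1 (141) or neither (261) of the dox 100 libraries. Kept reporters lie above the rest at dox 100, which follows from their definition. They lie mostly right of 0 at dox 0, and many reporters right of 0 at dox 0 had no RNA at dox 100.

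By window the kept share ran from 11.8% in chr11:90000001-95000000 (2 of 17) to 58.3% in chr11:75000001-80000000 (21 of 36), and 16 of the 25 windows were above 30.7%. In chr11:75000001-80000000 all 8 reporters of pool B were kept, and 5 of 8 in pool A, 4 of 9 in pool C and 4 of 11 in pool D. The window chr11:10000001-15000000, with 9 of 16 kept, had the second highest share. On the distal side of 60 Mb 43.0% were kept, against 30.9% on the proximal side.

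**Figure D4:**
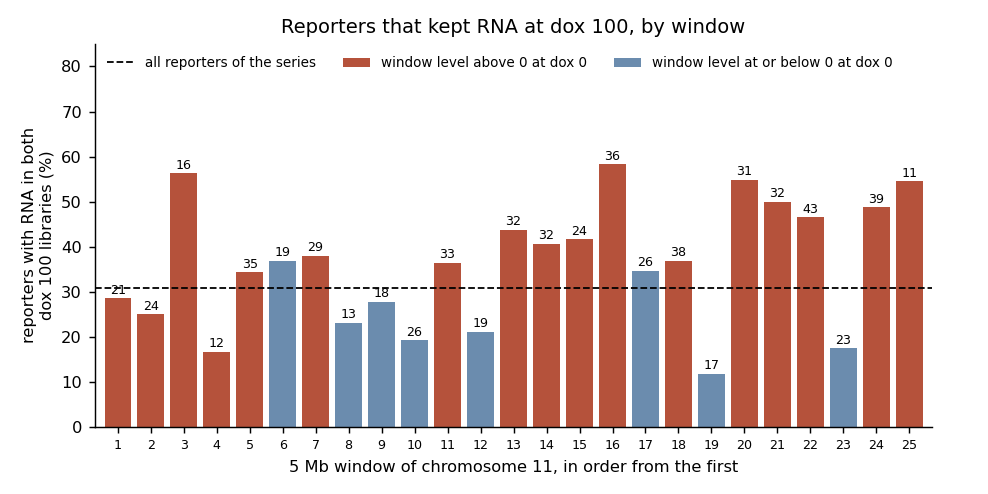
Share of reporters with RNA in both dox 100 libraries (y axis, percent) in each 5 Mb window of chromosome 11 (x axis, in order), with the number of reporters above each bar and the share over all reporters, 30.7%, as a dashed line. Red bars are windows with a level above 0 at dox 0. The 19th window holds the lowest share, 11.8%, and the 16th the highest, 58.3%.

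Change with dose was tested for each reporter as RNA relative to DNA with edgeR's quasi-likelihood test, per pool over all its reporters, at a Benjamini-Hochberg adjusted p of 0.05. The replicates are cultures of 1 pool, technical per the labels, so these p-values measure the spread between such cultures. At dox 100 against dox 0, 292 of the 649 chromosome 11 reporters were lower (45.0%, where 50.4% of all reporters were lower) and 89 were higher (13.7%, where 10.9% of all were higher). The median log2 change was -2.35 on chromosome 11 and -4.12 over all reporters. By pool, 41.5% to 50.0% were lower and 9.88% to 17.5% were higher. Of the 292 lower reporters 244 had RNA in neither dox 100 library, 20 in 1 and 28 in both. Of the 89 higher ones 87 were kept.

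The split between higher and lower depends on the scaling of the RNA libraries. With TMM, the scaling used here, 23.4% of the calls were higher (89 of 381). With DESeq2 size factors 12.9% were higher (50 higher, 339 lower), and with library totals 10.4% (42 higher, 361 lower). Relative to TMM, library totals moved the median change of all reporters by -0.92 and that of kept chromosome 11 reporters by -1.29 (log2), and DESeq2 size factors by -0.76 and -0.83. A fold change below is therefore relative to the bulk of the reporters of the pool, and where an increase named below lost its call or changed sign with another scaling this is said beside it.

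At 0.1 ng/ml 105 reporters were lower (16.2%, where 19.8% of all reporters were lower) and 73 higher (11.2%, where 9.07% of all were higher). The median log2 change was -0.45 on chromosome 11 and -0.80 over all reporters, and 41.0% of the calls were higher with TMM, 18.8% when DESeq2's size factors scaled the libraries and 13.6% by totals. Leaving out either dox 0 replicate left 94 calls of 178, and DESeq2's Wald test gave 272. At 0.01 ng/ml edgeR called 0 chromosome 11 reporters, where 0.0185% of all reporters were higher and 0% lower, with 26 of 649 members and 532 of all 10785 reporters at an unadjusted p under 0.05, and DESeq2 called 3. DNA abundance at dox 100 against dox 0 gave 0 calls by edgeR on chromosome 11 and 0% over all reporters, with 25 of 649 members and 486 of all 10785 reporters at an unadjusted p under 0.05.

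The largest decreases were of reporters with 2585 to 4285 RNA counts per library at dox 0 and none at dox 100. Folds for them are RNA over DNA by library totals, with 3 RNA counts over both dox 100 libraries as the floor, and so are lower bounds. Pool A 116892520 had 0 and 0 RNA counts at dox 100, against 3360 and 4181 at dox 0, at least 3165-fold lower (edgeR adjusted p = 7.45e-06). Its DNA counts were 986 and 1423 at dox 100, against 975 and 549 at dox 0, so the barcode was still present. Pool A 116008467 had 0 and 0, against 3764 and 4285 at dox 0, at least 1866-fold lower (edgeR adjusted p = 1.14e-06). Both lie in the window that was highest at dox 0, and a high level there did not go with kept RNA in every reporter. Pool B 98200911 (0 and 0 against 3078 and 3155 counts), pool A 117569341 (0 and 0 against 2585 and 2736) and pool A 86172763 (0 and 0 against 3457 and 3997) fell by at least 1576-fold, 1447-fold and 1297-fold in that order. At 0.1 ng/ml these 5 reporters still had between 81 and 881 RNA counts per library.

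At 0.1 ng/ml the largest decreases were at pool A 11145292, with 0 and 0 RNA counts against 254 and 278 at dox 0, pool B 118847178, with 1 and 2 against 295 and 413, and pool C 44988993, with 0 and 0 against 426 and 555. The first was at least 184-fold lower, the second 174-fold lower and the third at least 173-fold lower. Pool A 11145292 lost its call in 5 of the other settings tried, among them each of the 4 that leave out a replicate. It also had 0 and 89 RNA counts at 100 ng/ml, so RNA was counted in replicate 2 only at the higher dose, and it was not called there.

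The largest increase had a rising neighbour from another pool. Pool A 12363646, on the minus strand, had 20458 and 22662 RNA counts at dox 100, against 671 and 871 at dox 0, with 643 and 370 against 481 and 962 DNA counts. Its log2 change was 6.90 ± 0.63 (SE, edgeR adjusted p = 7.32e-06). Pool B 12368651, on the plus strand 5.00 kb away, had 4142 and 5683 RNA counts at dox 100, against 438 and 490 at dox 0, a log2 change of 5.74 ± 0.45 (edgeR adjusted p = 2.46e-06). The 2 integrations are in separate pools and in opposite orientation, and both rose. They had 10087 and 7505, and 3779 and 4156, RNA counts at 0.1 ng/ml, between their counts at the lower and higher doses. They close a run of 5 kept reporters of 3 pools that begins at 11866213. In it pool B 12193686 had 528 and 329 RNA counts at dox 100, against 175 and 175 at dox 0. Its change was not compared between scalings.

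The next 2 in size had no rising neighbour within 100 kb. Pool D 53713891 had 4114 and 3257 RNA counts at dox 100, against 257 and 242 at dox 0, a log2 change of 6.08 ± 0.79 (edgeR adjusted p = 6.42e-05). Its nearest neighbours on the proximal side, pool B 53685905 at 28.0 kb and pool D 53665871 at 48.0 kb, had 0 and 0 RNA counts at dox 100, against 58 and 51, and 490 and 358, at dox 0, and both were lower. This site thus rose relative to the bulk of its pool, while no RNA was counted at dox 100 for either site within 50 kb of it. Pool B 22520979 had 1932 and 2471 RNA counts at dox 100, against 328 and 246 at dox 0, a log2 change of 5.81 ± 0.70 (edgeR adjusted p = 3.99e-05), and no other reporter lay within 100 kb of it. Pool C 102194203, among the 5 highest at dox 100 with 11520 and 11381 counts against 2769 and 3131 at dox 0, had a kept neighbour 60.0 kb away in pool D with 43 and 47 counts.

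Dense stretches were taken as chains of reporters of any pool with gaps of at most 50 kb and 6 members or more. Chromosome 11 held 5 such chains, and in 3 of them at least 50% of the members were kept. This count follows from the settings: a gap of 20 kb gave 1 chain and it was kept, a gap of 100 kb gave 16 with 8 kept, and 4 members or more gave 22 with 13 kept. Members of a chain share a place on the chromosome but come from different pools and both orientations.

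The largest chain was chr11:107171483-107296994, with 11 reporters of all 4 pools over 126 kb, 5 on the plus strand and 6 on the minus strand. All 11 were kept, and their mean level was 2.42 at dox 0, 3.02 at 0.01 ng/ml, 5.53 at 0.1 ng/ml and 6.55 at 100 ng/ml. At dox 100 the member with least RNA, pool A 107268545, had 6 and 414 counts, against 781 and 1231 at dox 0. Pool A 107293085 had 10165 and 12021 RNA counts at dox 100, against 8082 and 9061 at dox 0, and pool D 107296994 had 2157 and 2008, against 665 and 558. Both rose by edgeR, by 1.59 ± 0.27 and 3.95 ± 0.94 on the log2 scale (adjusted p = 0.000468 and 0.00372). The first was not called with library totals, and the second changed by 2.56 and was not called without dox 0 replicate 2. Their neighbour pool B 107293752, 667 bp from the first, had 2878 and 4542 RNA counts at dox 100, against 10962 and 11537 at dox 0, and its log2 change of 0.77 with TMM became -0.52 with library totals and -0.04 with DESeq2 size factors. It was also not called without dox 0 replicate 2 or without either dox 100 replicate. The 3 reporters at the distal edge of the chain therefore differed in how much RNA they held at dox 100.

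With TMM no member was lower, though this did not hold in every fit with a replicate left out. In all, 7 of the 11 members were higher with TMM. That count was 2 with library totals, 3 with DESeq2 size factors, 3 without dox 0 replicate 2 and 5 when any other replicate of dox 0 or dox 100 was left out. The 6 members in pool A made up 1.58% and 1.75% of the pool's RNA counts at dox 100, against 1.32% and 1.32% at dox 0, with 0.500% and 0.440% against 0.400% and 0.437% of its DNA counts. The stretch held its share of a pool in which 34.9% of chromosome 11 reporters had no RNA in either dox 100 library. On the proximal side the nearest reporter, pool D 107104358 at 67.1 kb, had 0 and 0 RNA counts at dox 100, against 56 and 89 at dox 0. On the distal side the next reporter lay 496 kb away and opened another chain, chr11:107793056-107847778, with 6 reporters of all 4 pools over 54.7 kb. In that chain 1 member was kept, 3 were lower (6 without dox 100 replicate 1) and none was higher, and the mean level was -0.63 at dox 100 and -0.08 at dox 0. These 2 neighbouring dense stretches thus stood apart at both doses.

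The chain chr11:62163835-62324216 held 7 reporters over 160 kb, 3 in pool A and 4 in pool C, and all 7 were kept. Its mean level was 1.81 at dox 0, 2.77 at 0.01 ng/ml, 6.41 at 0.1 ng/ml and 7.83 at 100 ng/ml. Pool A 62321485 had 28315 and 28504 RNA counts at dox 100, against 2486 and 2711 at dox 0, a log2 change of 5.24 ± 0.27 (SE, edgeR adjusted p = 4.50e-07). Pool C 62324216, 2.73 kb away, had 15968 and 13814, against 957 and 1024 at dox 0, a change of 5.70 ± 0.61 (edgeR adjusted p = 1.47e-05), and it was the highest reporter of the chromosome at dox 100, with a level of 11.56. Pool A 62307475 and pool C 62245758 rose by 5.55 ± 0.56 and 4.42 ± 0.63 (edgeR adjusted p = 1.30e-05 and 0.000115). The 4 largest increases of the chain thus came from both pools, at sites within 78.5 kb of each other.

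The proximal members of the chain behaved otherwise. Pool C 62163835 had 27 and 7 RNA counts at dox 100, against 172 and 187 at dox 0, and pool A 62213004 had 917 and 714, against 3814 and 4541, and edgeR called neither. Distal of the chain, pool B 62425077 at 101 kb was still kept but lower, with 27 and 94 counts at dox 100, against 1344 and 1418 at dox 0. The 3 members in pool A took 2.96% and 2.75% of the pool's RNA counts at dox 100, against 0.425% and 0.429% at dox 0, while their DNA share was 0.224% and 0.252% against 0.248% and 0.254%. The 4 in pool C took 2.01% and 1.87% of RNA counts, against 0.134% and 0.138% at dox 0. A few sites therefore supplied a visible part of what RNA was left in each of these pools. Of the 7 members 5 were higher and 0 lower with TMM, and 4 were higher and 1 lower with library totals, with DESeq2 size factors and with DESeq2's Wald test. Without dox 100 replicate 1, 4 were higher and 2 lower.

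**Figure D5:**
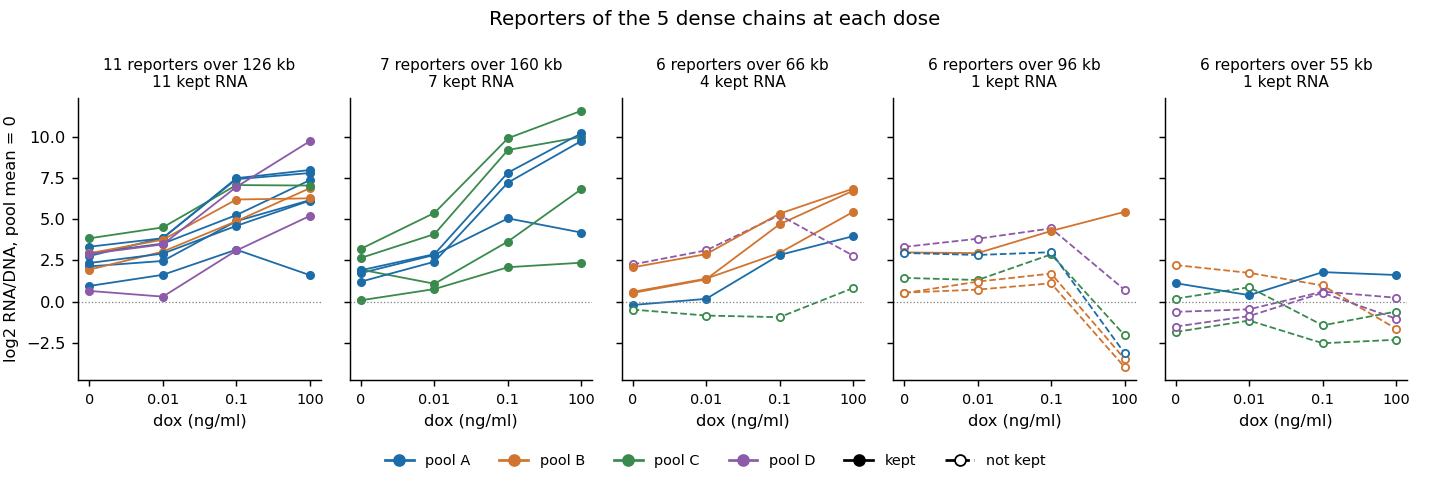
Level (y axis, log2 RNA/DNA with the pool mean at 0) of every member of the 5 chains at each dose (x axis, ng/ml), 1 line per reporter in the colour of its pool, with filled points and solid lines for kept reporters. In the 2 chains with all members kept the means at dox 100 are 6.55 and 7.83, and in the 2 chains with 1 kept member they are -1.08 and -0.63. Kept was defined by RNA at dox 100, so this contrast follows in part from the definition.

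The third kept chain, chr11:26001493-26067090, had 6 reporters of all 4 pools over 65.6 kb, with 4 kept and the same 4 higher with TMM. Pool B 26001493 had 745 and 836 RNA counts at dox 100, against 454 and 554 at dox 0, and rose by 3.62 ± 0.46 (edgeR adjusted p = 6.30e-05). It remained the one higher call of the chain with library totals or with DESeq2's factors. The other 3 were not called with library totals, and 2 members were higher when any replicate of dox 0 or dox 100 was left out. Among those 3, pool A 26028299, changed by 1.12 with TMM and by -0.17 with library totals. With either dox 100 replicate left out, the calls of the chain were not all higher. The mean level of the chain was 4.42 at dox 100 and 0.79 at dox 0. The chain chr11:5343283-5438940, also with 6 reporters of 4 pools, stood at -1.08 at dox 100 and at 1.95 at dox 0, with 1 member kept and 4 lower. Its kept member, pool B 5396592, had 72 and 141 RNA counts at dox 100, against 651 and 575 at dox 0, and pool D 5387987, 8.61 kb away, had 342 and 0, against 3446 and 3625. The levels of 2 chains at dox 0 therefore did not give the order of their levels at dox 100.

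Runs of consecutive kept reporters, with no limit on the gap, gave both fully kept chains and 3 further stretches as the 5 longest. After the 11 of chr11:107171483-107296994, the longest had 8 members, at chr11:62163835-62425077 and at chr11:79447296-79573835, and then 6, at chr11:69196136-69513699 and chr11:97523049-97692396. Runs were chosen by the RNA they kept, so their kept members are no finding and what follows is how far members moved. At chr11:97523049-97692396, pool D 97523580 had 16155 and 16694 RNA counts at dox 100, against 2085 and 2367 at dox 0, and rose by 4.06 ± 0.29 (edgeR adjusted p = 2.77e-06). Pool C 97523049, 531 bp away, had 1961 and 2297, against 262 and 321, and rose by 5.36 ± 0.70 (edgeR adjusted p = 6.45e-05). Pool A 97594599, 71.0 kb on, had 5974 and 8618, against 2431 and 2976, and rose by 2.90 ± 0.38 (edgeR adjusted p = 7.31e-05), while pool B 97597067, 2.47 kb from it, had 106 and 130, against 639 and 788, and was not called. So sites a few kb apart in this run differed in the RNA they had left.

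The last member of the run, pool D 97692396, had 58 and 225 RNA counts at dox 100, against 1505 and 1657 at dox 0, and was itself lower. A run ends at a reporter not kept by its definition, and 76.1 kb on began a run of 11 reporters not kept, at chr11:97768478-100135394. The 11 were chosen by RNA missing from at least 1 dox 100 library, and 4 of them had RNA in 1 such library. Their lower calls follow largely from that choice. These 11 had a mean level of 1.45 at dox 0, above the chromosome's own mean of 0.53, and 7 of them were lower at dox 100 (11 without dox 100 replicate 1) and none higher. Pool B 98200911, the third largest decrease of the chromosome, lies there. Sites high at dox 0 that kept RNA and others with none counted at dox 100, such as pool B 98200911, shared the window chr11:95000001-100000000. The run of 11 extends past that window.

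At chr11:79447296-79573835, 8 reporters of 4 pools were kept over 127 kb, but 4 of them were lower and 1 higher. Pool B 79457402 had 123 and 172 RNA counts at dox 100, against 6343 and 6959 at dox 0, a log2 change of -3.27 ± 0.29 (edgeR adjusted p = 4.55e-06). Pool B 79544041 had 232 and 461, against 280 and 344 at dox 0, a change of 2.12 ± 0.52 (edgeR adjusted p = 0.00437) that was not called with library totals or DESeq2 size factors. Kept RNA in this run was thus mostly a remainder of a higher count. At chr11:69196136-69513699, pool D 69513699 had 7502 and 10755, against 3604 and 4211, and rose by 3.0 ± 0.45 (edgeR adjusted p = 0.000168), and pool A 69500389, 13.3 kb from it, had 2985 and 2580, against 1854 and 1992, and was not called. Pool A 69356928 and pool C 69462233 of the same run were lower, with 70 and 83 counts, and 32 and 83 counts, at dox 100, against 2322 and 2370, and 1004 and 1150, at dox 0.

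Runs of reporters not kept were chosen by RNA missing at dox 100, so their lower calls follow largely from that choice. Of the 261 chromosome 11 reporters with RNA in neither dox 100 library, 244 were lower, and of all reporters 50.4%. The longest such run had 17 members of 4 pools, at chr11:44694815-45836406 over 1142 kb. Of these 13 were lower at dox 100, between 10 and 14 when a replicate of dox 0 or dox 100 was left out, and 5 had RNA in 1 dox 100 library. Pool A 45665047, the member with most RNA, had 263 and 0 counts at dox 100, against 10137 and 10997 at dox 0. Pool C 44988993 in the same run had 0 and 0, against 426 and 555, and had none at 0.1 ng/ml either. On the proximal side, 135 kb before the run, pool C 44559796 had 2552 and 2085 RNA counts at dox 100, against 4346 and 5689 at dox 0. A run of 15 at chr11:90169442-94721337 spanned 4552 kb and had a mean level of -1.57 at dox 0, with 10 members lower (6 without dox 0 replicate 2). In it RNA was low at dox 0 already: 12 of the 15 had under 100 RNA counts in both dox 0 libraries.

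Neighbouring reporters from different pools were alike at short distances. For the 74 pairs less than 10 kb apart, Pearson r of their levels was 0.50 at dox 0, 0.58 at 0.01 ng/ml, 0.69 at 0.1 ng/ml and 0.67 at 100 ng/ml. For the 395 pairs at 10 to 100 kb it was 0.31, 0.37, 0.48 and 0.37, and for the 2646 pairs at 100 kb to 1 Mb it was 0.12, 0.13, 0.08 and -0.0046. Likeness thus fell off within 1 Mb, a shorter scale than the 5 Mb windows. Pairs share reporters, 118 of them in the first class, and no p is given. On the other chromosomes the r of pairs under 10 kb was 0.37, 0.44, 0.60 and 0.58 at the 4 doses, over 1005 pairs, and the difference from chromosome 11 was not tested. Without the 2 chains in which all members were kept, r under 10 kb was 0.63 at dox 100 and 0.49 at dox 0, and at 10 to 100 kb it was 0.26 at dox 100.

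Kept reporters had kept neighbours more often than reporters not kept did. Within 10 kb, in another pool, 75.9% of the neighbours of a kept reporter were kept, against 34.4% of the neighbours of a reporter not kept. For neighbours at 10 to 100 kb the same shares came to 63.0% and 34.0%, and for those at 100 kb to 1 Mb to 41.1% and 40.2%. On chromosome 11 the shares thus came close together beyond 100 kb. On the other chromosomes they were 69.2% and 33.4% within 10 kb, and 56.1% and 30.9% at 10 to 100 kb. There they were still apart at 100 kb to 1 Mb, at 36.6% and 30.9%. The difference from chromosome 11 was not tested. Without the 2 fully kept chains, chromosome 11 gave 69.6% and 34.4% within 10 kb, and 55.4% and 33.5% at 10 to 100 kb. Of the pairs 1 bp apart, pool D 38677077 and pool C 38677078 had 42 and 287, and 0 and 26, RNA counts at dox 100, and pool D 117451102 and pool D 117451103 had 0 and 0, and 327 and 0. The members of the second pair, of opposite strands, had levels of -2.14 and 1.84 at dox 0.

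Of the plus strand reporters 38.0% were kept, and of the minus strand reporters 38.1%. The level of the plus strand minus that of the minus strand was -0.12 ± 0.36 at dox 100 and 0.08 ± 0.17 at dox 0 (SD over 4 pools), with pools of both signs at both doses. The number of higher calls was 35 of 305 on the plus strand and 54 of 344 on the minus strand, and 146 were lower on each. Gene features were not used here, because the deposited positions are on mm9 and no annotation of that build was at hand.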

How the data were processed

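Barcode counts of RNA and genomic DNA were analysed in 64 libraries (4 pools, 4 dox doses, 2 replicate cultures). The authors deposited 1 table with raw counts per barcode, pool, library and mm9 position, and Bowtie2 2.0 and the build mm9 are named, per the submitters' processing notes, without their role. The members, lists and windows were chosen with earlier results of these data known. A reporter entered only with 10 counts or more in all 8 DNA libraries of its pool. Each pool's 16 libraries were fitted in edgeR 4.0.16 (R 4.3.3) with assay, dose and their interaction, TMM within each assay, quasi-likelihood tests and Benjamini-Hochberg adjustment over all reporters of the pool at 0.05. An SE is the log2 change over the square root of F. Levels used a pseudocount of 1, and fold bounds a floor of 3 RNA counts over both libraries. PCR counts carry no molecular identifiers, so depth covers counting error only. Replicates differed beyond counting noise in every library pair, with a chi-square per degree of freedom of 4.51 to 91.5. Replicate numbers name shared cultures, per the labels' protocols, so they pair the samples. Replicate differences at 2 doses correlated with r of -0.05 to 0.04 for RNA and -0.05 to 0.05 for DNA. Reporters were named by rule: the 5 highest and lowest at dox 0, the 5 highest at dox 100, the 5 largest called changes each way at dox 100 and the 3 at 0.1 ng/ml, members of kept chains, the longest runs and the 3 highest and lowest windows. Their neighbours and other chains were chosen after values were seen. Alternatives were other scalings, DESeq2 1.42.0, DNA as an offset, other DNA minimums, pseudocounts, gaps and windows, a replicate block and each replicate or pool left out. The fits were tested on simulated counts in which a small part of the reporters changed, as many up as down. That simulation does not cover a dose at which many reporters lost RNA, so it does not bear on the scaling at dox 100.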

Additional observations from a re-analysis of the deposited data

How the results depend on the processing

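All differences in level between chromosome 11 and the rest kept their sign under every pseudocount, DNA minimum, median, block mean and left-out pool or replicate tried, with ranges of 0.51 to 0.70 at dox 0, 0.62 to 0.86 at 0.01 ng/ml, 0.79 to 1.22 at 0.1 ng/ml and 0.55 to 1.03 at 100 ng/ml. The 381 calls at dox 100 ranged from 257 to 447. With the replicate block they were 361 (81 higher, 280 lower), and at 0.1 ng/ml the block gave 145 calls (61 higher, 84 lower), 0 at 0.01 ng/ml and 0 for DNA, so the pairing moved no count by over 1.5 times. The 178 calls at 0.1 ng/ml became 272 with DESeq2's Wald test, 112 with DNA as an offset and 94 to 196 with a replicate left out, and DESeq2's Wald test made 3 calls where edgeR made 0 at 0.01 ng/ml. The kept share of 38.7% became 59.9% with RNA in either library, where 51.9% of all reporters had it, and 45.5% to 53.1% with 1 dox 100 replicate left out. Kept chains numbered 1 with gaps of 20 kb, 8 with 100 kb and 13 with 4 members or more, against 3. Windows above 0 at every dose numbered 10 when shifted and 9 by medians, against 16. Among single reporters at dox 100, library totals reversed pool A 26028299 (-0.17), pool A 107213365 (-0.30) and pool B 107293752 (-0.52), and the last was -0.041 with DESeq2 size factors and -0.041 with DESeq2's Wald test. Of the other values for single reporters, 416 kept direction and side of the threshold and 63 kept direction but lost the call. The cause was not tested. RNA counts of 0 at dox 100 limit decreases to bounds, and 2 cultures per pool limit every test.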
